A study of Mus musculus with 15 samples.

Results

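The tricarboxylic acid cycle genes described here are Cs, Idh3a, Idh3g, Idh2, Dlst, Suclg1, Fh1, Mdh2 and Mdh1, measured in the left ventricle of mouse hearts under pressure overload. They were chosen by name, as the probe sets of the table that the platform annotation assigns to one of these symbols alone, which gave 12 of the 12422 probe sets that are not controls and 9 of 8251 genes. Total RNA was hybridised to 15 one-colour oligonucleotide arrays in 4 groups. Sham hearts came from 3 females and 6 males, and hearts after the operation that the labels call TAC came from 3 females and 3 males. The sources used here do not state strain, age, time after the operation or any pooling, and do not say that each heart is that of a separate animal. The p-values therefore cover the spread among these arrays, which may be technical.

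The cycle oxidises the acetyl group of acetyl-CoA to CO2 in the mitochondrial matrix and passes the electrons to the respiratory chain as NADH and FADH2. Heart muscle draws most of its ATP from mitochondrial oxidation, mainly of fatty acids, so the cycle enzymes are abundant there. Citrate synthase (Cs) joins acetyl-CoA to oxaloacetate, and isocitrate dehydrogenase then forms alpha-ketoglutarate, either NAD-dependent (the catalytic subunit Idh3a and the regulatory subunit Idh3g) or NADP-dependent (Idh2). Dlst is the succinyltransferase of the alpha-ketoglutarate dehydrogenase complex, Suclg1 the alpha subunit of succinyl-CoA synthetase, and Fh1 fumarase. Mdh2 closes the cycle as the mitochondrial malate dehydrogenase, while Mdh1 is its cytosolic counterpart in the malate-aspartate shuttle.

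The stretches before the annotated starts are shown for 4 genes that stand out in the results below. No expression result rests on these sequences. Idh2 is the gene whose sham and TAC arrays did not overlap in either sex, Cs and Idh3g are the pair that varied most closely together from array to array, and Fh1 had the averaged change nearest to 0. Each stretch holds the 120 bases before the start that RefSeq gives (build GRCm38.p6), at chr7:80115351-80115470 (minus strand), chr10:128337607-128337726 (plus strand), chrX:73786898-73787017 (minus strand) and chr1:175625636-175625755 (minus strand). For Idh2 the annotated gene begins farther upstream than this start. Capitals mark the NF-Y box, whose letters are CCAAT, the GC box, whose letters are GGGCGG, and the GABPA core, whose letters are CCGGAAG, in either orientation. Read on the opposite strand, the NF-Y box appears as ATTGG, while the GC box appears as CCGCCC.
Idh2: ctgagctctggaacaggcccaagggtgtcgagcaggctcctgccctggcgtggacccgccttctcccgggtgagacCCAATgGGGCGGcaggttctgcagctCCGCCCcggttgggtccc
Cs: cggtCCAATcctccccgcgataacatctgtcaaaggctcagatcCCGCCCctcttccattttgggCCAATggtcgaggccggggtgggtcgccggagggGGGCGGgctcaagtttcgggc
Idh3g: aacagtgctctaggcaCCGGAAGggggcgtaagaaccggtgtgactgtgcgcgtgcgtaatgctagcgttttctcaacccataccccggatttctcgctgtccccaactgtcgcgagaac
Fh1: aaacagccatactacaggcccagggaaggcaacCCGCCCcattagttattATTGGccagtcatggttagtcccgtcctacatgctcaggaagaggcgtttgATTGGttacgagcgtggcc

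RefSeq windows of 300 bases, from 250 before to 50 after the start, were found for 8 of the 9 genes, without Idh3a. CCAAT was present in 4 of the 8 (Idh2, Cs, Fh1 and Mdh1) and in 37.4% of all 32851 windows. GGGCGG was present in 6 of the 8 (Idh2, Cs, Fh1, Mdh2, Mdh1 and Dlst) and in 35.7% of all windows, and CCGGAAG in Idh3g and Dlst and in 8.86% of all. The motif TNAAGGTCA of the estrogen-related receptors was in 0 of the 8 windows and in 1.28% of all. A motif of NRF1 was searched as well and was in 0 of the 8 and in 0.971% of all. Both strands were searched. No base of the printed stretches belonged to more than 1 of these motifs. In Idh2 the CCAAT begins 44 bases and a GGGCGG 38 bases before the start, and in Cs the CCAAT motifs begin 116 and 55 bases before it. These matches describe the sequence and are not shown to be sites.

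The median intensity of an array was 21.3 at the lowest and 26.7 at the highest, and precision is limited by how many arrays there are. The mean Spearman correlation of an array with the others ran from 0.916 for female TAC 1 and 0.922 for male sham 7 to 0.942. All 8 heart muscle markers (Myh6, Actc1, Tnnt2, Tnni3, Myl2, Myl3, Mybpc3 and Ryr2) exceeded on at least 1 array the floor of 20 intensity units set for the test. Their summed intensity ran from 28327 to 33777 in male sham, 31797 to 33690 in female sham, 28437 to 32704 in female TAC and 28055 to 34711 in male TAC hearts, so that the groups overlapped. Across the 7453 tested probe sets, limma called 24 for the averaged effect of TAC at a Benjamini-Hochberg adjusted p under 0.05.

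The first comparison set TAC against sham hearts of the same sex and gave both sexes equal weight. All 9 genes had an averaged log2 change below 0, from -0.37 for Idh3g to -0.05 for Fh1 (0.01 for Fh1 with each array centred on its median), with a median of -0.20, where all tested probe sets had a median of -0.03 and 58.2% lay below 0. None of the 9 passed the adjusted threshold, which 0.322% of all tested probe sets did. At an unadjusted p under 0.05, 4 of the 9 were lower with TAC (Idh2, Idh3a, Cs and Idh3g), against 4.66% of all tested probe sets. Cs acts at the first step of the cycle, and the other 3 genes encode enzymes that oxidise isocitrate. Later steps were represented too. Of 8 further cycle enzymes tested, 3 (Sdhc, Sdha and Suclg2) were also lower at an unadjusted p under 0.05 in limma. The median value of the 9 genes was that of Mdh1, which is a change of -13.1% in intensity.

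**Figure D1:**
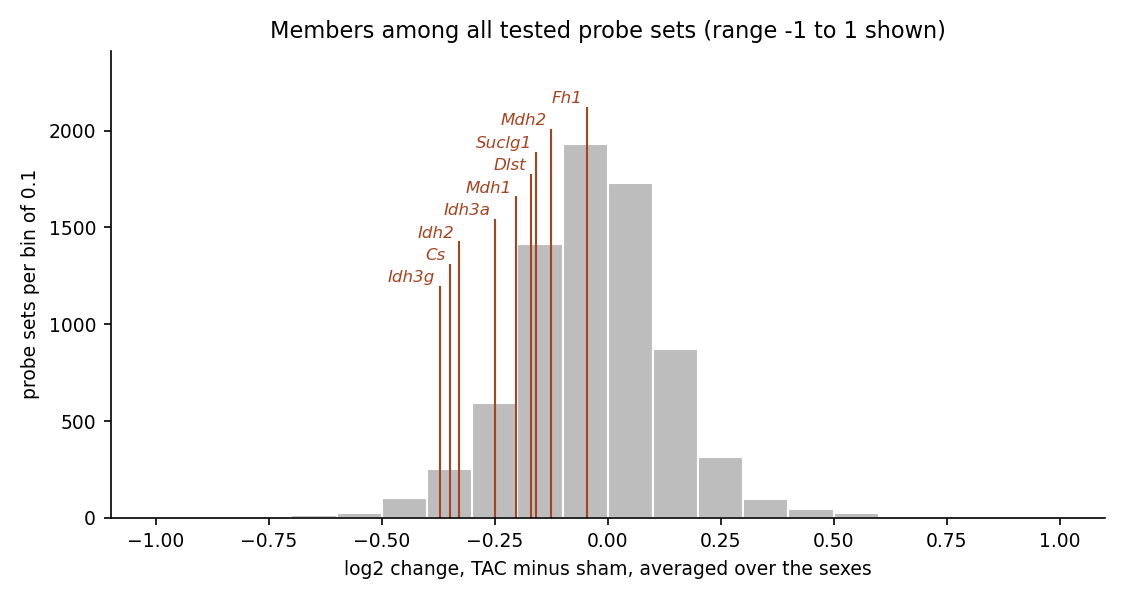
The grey bars count all tested probe sets by their averaged log2 change (TAC minus sham, bins of 0.1, range -1 to 1 shown), and the red lines mark the 9 tricarboxylic acid cycle genes. All 9 lines lie to the left of 0, from -0.37 (Idh3g) to -0.05 (Fh1, which is 0.01 with each array centred on its median). Idh3g, Cs and Idh2 lie in the lower tail, in the bin from -0.4 to -0.3, which counts 250 probe sets. The bin from -0.1 to 0, which holds Fh1, counts 1930.

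Idh2, the NADP-dependent isocitrate dehydrogenase of the mitochondria, had the smallest p of the 9. Its intensity was 1531, 1787 and 1694 in the female sham hearts 1 to 3, and 1297, 1167 and 1479 in the female TAC hearts 1 to 3. The male sham hearts had a lowest value of 1631, a median of 1704 and a highest value of 1811, and the male TAC hearts 4 to 6 had 1594, 1086 and 1537. In each sex all TAC arrays lay below all sham arrays, though by small margins, since female TAC 3 and male TAC 4 came close to the lowest sham heart of their sex. That was so for 0.255% of all tested probe sets. The averaged log2 change was -0.33 ± 0.10 (SE), a change of -20.5% (95% interval -31.5 to -7.57), and limma gave an adjusted p of 0.320.

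The log2 change of Idh2 was -0.35 ± 0.16 (SE) in females and -0.31 ± 0.13 (SE) in males. Without male TAC 5, the lowest array, the male value was -0.13. By mean intensity the order of the groups was male sham (1719 ± 74, SD, n = 6), female sham (1671 ± 129, SD, n = 3), male TAC (1405 ± 278, SD, n = 3) and female TAC (1314 ± 157, SD, n = 3). The 2 sham groups differed by less than their spread, as did the 2 TAC groups.

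**Figure D2:**
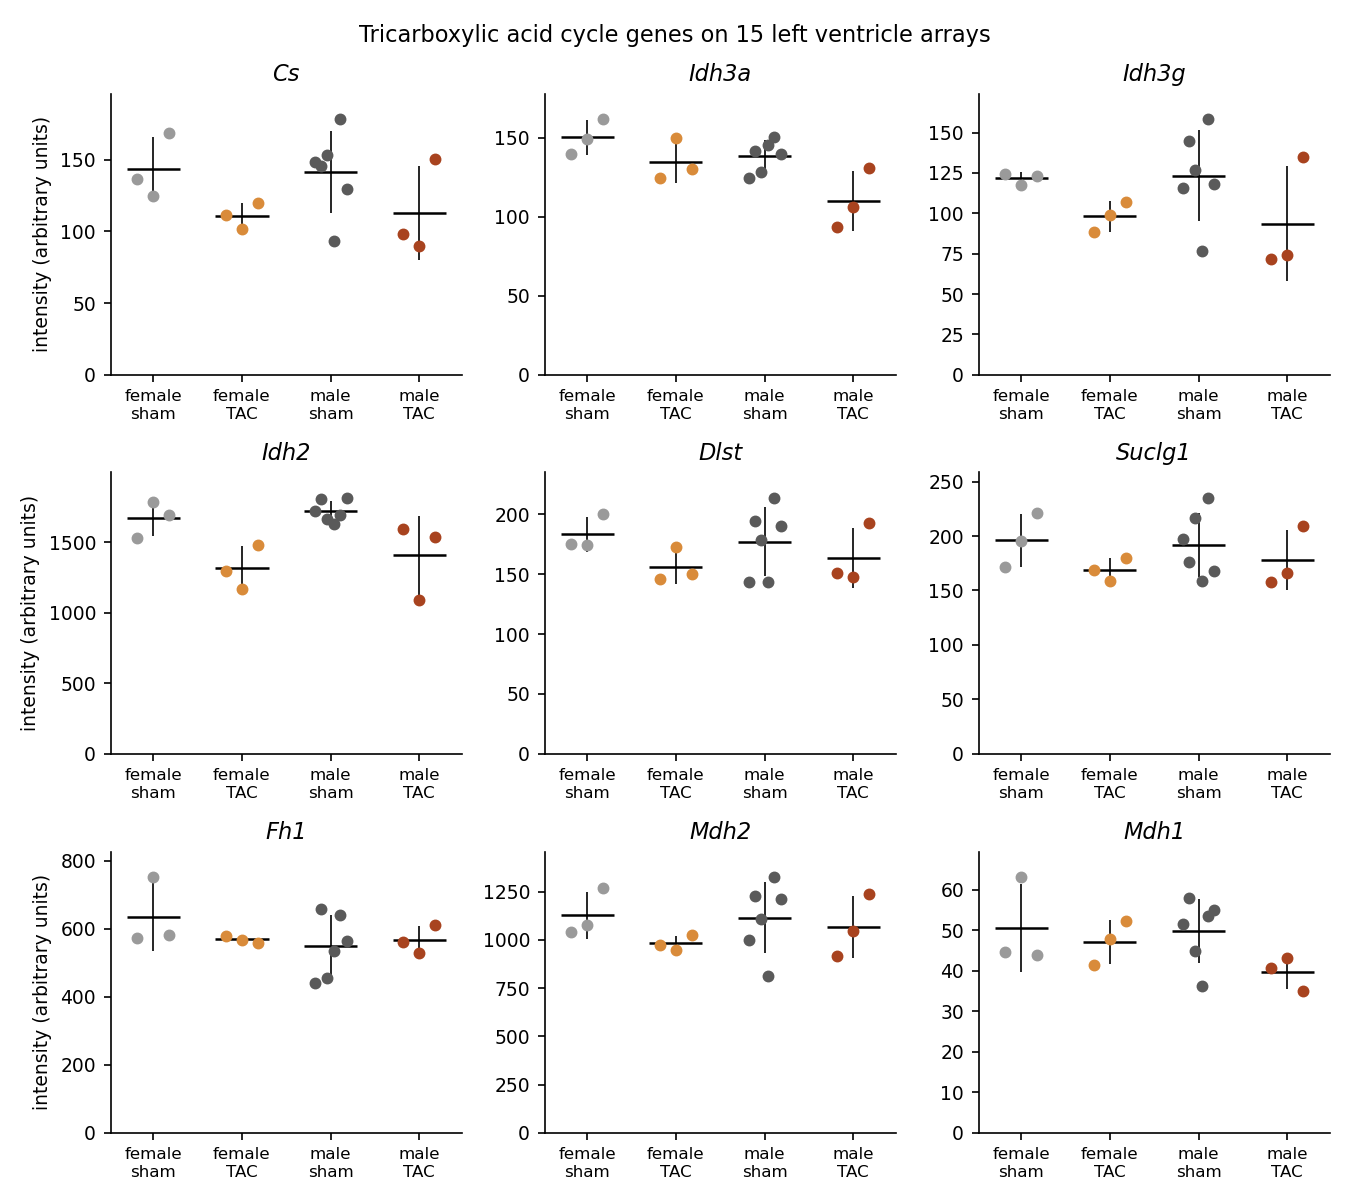
Intensity (arbitrary units, axes from 0) of the 9 genes on each of the 15 arrays, with the mean (horizontal bar) and SD (vertical bar) of each group. For Idh2 every TAC array lies below every sham array of its sex, while the groups overlap in at least 1 sex for each other gene.

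Citrate synthase, often used as a marker of mitochondrial content, was measured by 1 probe set. Cs had 136, 125 and 169 intensity units in the female sham hearts 1 to 3 and 112, 102 and 119.5 in the female TAC hearts 1 to 3. All 3 female TAC arrays were below the female sham arrays. Male sham hearts ranged from 93.2 to 178 with a median of 147, and the male TAC hearts 4 to 6 had 98.2, 90.0 and 150.5. Male sham 7, with 93.2, and male TAC 6, with 150.5, made the male groups overlap. The averaged log2 change of Cs was -0.35 ± 0.15 (SE), or -21.5% (95% interval -36.8 to -2.49), with an adjusted p of 0.585 from limma.

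Idh3g, the regulatory subunit of the NAD-dependent isocitrate dehydrogenase, had the largest averaged change of the 9 and also a wide spread in males. The female sham hearts 1 to 3 had 124, 118 and 123 intensity units and the female TAC hearts 1 to 3 had 88.2, 99.1 and 107, with no overlap. Male sham hearts ranged from 76.7 to 158 with a median of 123, and male TAC hearts 4 to 6 had 71.9, 73.9 and 135. Male TAC 6 lay above the median of the male sham hearts, while the other male TAC arrays lay below all of them. The averaged log2 change was -0.37 ± 0.16 (SE), or -22.7% (95% interval -39.2 to -1.80), with an adjusted p of 0.607 from limma. In males the value was -0.43 ± 0.21 (SE), and it was -0.72 without male TAC 6 (adjusted p = 0.266 from limma) and -0.27 without male TAC 4.

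Idh3a is the catalytic subunit of the same enzyme. Its female sham hearts 1 to 3 had 140, 149 and 162 intensity units and its female TAC hearts 1 to 3 had 124, 149.9 and 130, so female TAC 2 lay within the sham range. Male sham hearts ranged from 125 to 150.3 with a median of 141, and male TAC hearts 4 to 6 had 93.3, 106 and 131. Of the male TAC arrays, number 6 was again the highest and lay within the sham range. The averaged log2 change was -0.25 ± 0.10 (SE), or -15.8% (95% interval -27.1 to -2.82), with an adjusted p of 0.532 from limma.

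Dlst and Suclg1 act in the steps from alpha-ketoglutarate to succinate. Dlst had 175, 174 and 200.2 intensity units in the female sham hearts 1 to 3 and 146, 173 and 149.9 in the female TAC hearts 1 to 3. The female groups did not overlap, but female TAC 2 and female sham 2 were nearly equal. In males the sham hearts ranged from 143 to 214 and the TAC hearts from 147 to 193, so the TAC hearts lay inside the sham range. Suclg1 ranged from 172 to 221 in female sham, 159 to 179.7 in female TAC, 159 to 235 in male sham and 158 to 209 in male TAC hearts, with overlap in both sexes. The averaged log2 changes were -0.17 ± 0.11 (SE) for Dlst and -0.16 ± 0.11 (SE) for Suclg1, with limma adjusted p of 0.795 and 0.811.

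Fumarase and the malate dehydrogenases act in the last steps of the cycle and, for Mdh1, in the cytosol. Fh1 had 573, 753 and 584 intensity units in the female sham hearts 1 to 3, and 578, 569 and 559.8 in the female TAC hearts 1 to 3. Male sham hearts ranged from 440.2 to 658 with a median of 549.5, and the male TAC hearts 4 to 6, with 561, 528 and 611, lay inside that range. The averaged log2 change of Fh1 was -0.05 ± 0.11 (SE), with a 95% interval of -17.8% to 14.3% in intensity and a limma adjusted p of 0.954. Its sign depended on the scaling, since centring each array on its median gave 0.01.

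Mdh2 had 1041, 1078 and 1268 intensity units in the female sham hearts 1 to 3 and 976, 946 and 1026 in the female TAC hearts 1 to 3, without overlap. In males it ranged from 815 to 1326 in sham and from 918 to 1239 in TAC hearts. The averaged log2 change of Mdh2 was -0.13 ± 0.12 (SE), with an adjusted p of 0.863 from limma, and it was -0.07 without male TAC 4 and -0.08 without female sham 3. Mdh1, the dimmest of the 9 probe sets but above the floor on all 15 arrays, had 44.7, 63.2 and 44.0 intensity units in the female sham hearts 1 to 3 and 41.5, 47.9 and 52.3 in the female TAC hearts 1 to 3. Male sham hearts ranged from 36.3 to 58.1 and male TAC hearts from 35.0 to 43.3. Its averaged log2 change was -0.20 ± 0.13 (SE), with an adjusted p of 0.771 from limma, and it was -0.12 without female sham 2.

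The order of the group means differed between the genes. Mean intensity was highest in a sham group for all 9 genes, and for 8 of the 9 the sham means of the sexes differed by less than either SD. The exception was Idh3a, whose sham mean was higher in females by a log2 value of 0.12 ± 0.13 (SE, limma adjusted p = 0.974). Fh1 was the gene whose male TAC mean, 566 ± 42 (SD, n = 3), was above its male sham mean, 549 ± 91 (SD, n = 6). For Mdh1 the female TAC mean (47.2 ± 5.4, SD, n = 3) stood near the sham means (50.6 ± 10.9 in females, SD, n = 3, and 49.9 ± 8.0 in males, SD, n = 6), and the male TAC mean (39.7 ± 4.2, SD, n = 3) stood lowest.

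A further probe set was present for Idh3a, Idh3g and Dlst. That of Idh3a was at most 6.74 intensity units on every array, below the floor, and was not tested, so 11 of the 12 probe sets passed the filter on dim values. The second Idh3g probe set was dim, with its lowest group mean, 22.5, in female TAC hearts, and had an averaged log2 change of -0.21 ± 0.20 (SE). The second Dlst probe set, whose design can bind related transcripts, had -0.24 ± 0.16 (SE). Both had the same sign as the brighter probe set of their gene and neither passed in limma (adjusted p = 0.872 and 0.789).

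Within females all 9 genes were below 0 (Mdh1 was 0.08 without female sham 2), against 59.4% of all tested probe sets, with a median of -0.21. With each array centred on its median, the female median of the 9 genes was -0.13. None passed the adjusted threshold (0.0805% of all tested probe sets did), and Idh2 alone was lower at an unadjusted p under 0.05, against 2.98% of all. Over the whole array 6 probe sets were called in females, and 3 when same-numbered arrays were blocked. For 5 of the 9 genes (Cs, Idh2, Idh3g, Dlst and Mdh2) all female TAC arrays lay below all female sham arrays, against 5.49% of all tested probe sets. The female changes ran from -0.36 ± 0.22 (SE) for Cs (-0.24 without female sham 3) to -0.09 ± 0.19 (SE) for Mdh1. Without female sham 3 the female values of Suclg1 and Mdh2 were -0.12 and -0.11, against -0.21 and -0.20 with it, and without female sham 2 that of Fh1 was -0.02, against -0.15.

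In males 8 of the 9 genes were below 0, where 52.7% of all tested probe sets were, with a median of -0.31. The exception was Fh1, with 0.06 ± 0.15 (SE). None passed the adjusted threshold (0.134% of all did). Idh2 and Idh3a (-0.34 ± 0.13, SE) were lower at an unadjusted p under 0.05, against 3.22% of all. Non-overlap of the male groups was found for Idh2 alone and for 1.34% of all tested probe sets. The largest male values were those of Idh3g, Idh3a, Cs (-0.34 ± 0.19, SE) and Mdh1 (-0.32 ± 0.16, SE). The male value of Cs was -0.56 without male TAC 6 and -0.19 without male TAC 5. The 8 genes were below 0 in both sexes, as were 35.1% of all tested probe sets. Without male TAC 5 the male median moved to -0.13.

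**Figure D3:**
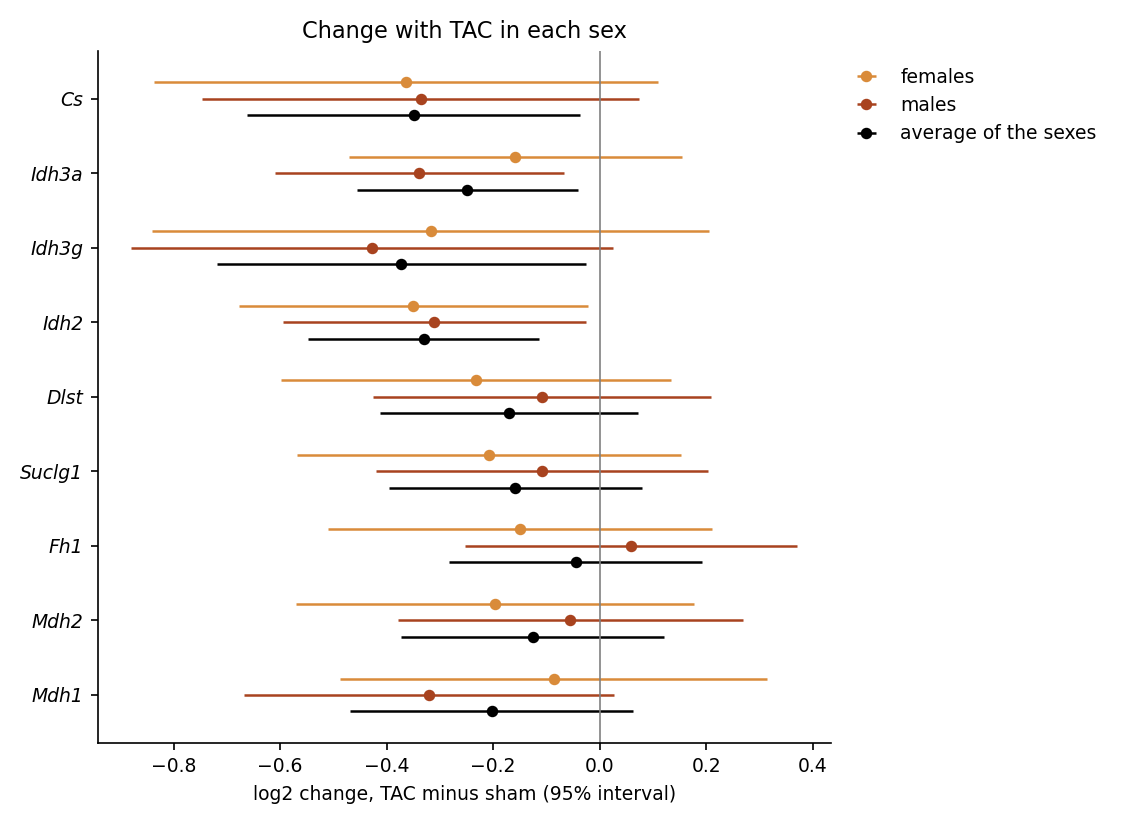
Log2 change (TAC minus sham, 95% interval from limma) of the 9 genes in females (orange), in males (red) and averaged over the sexes (black). The averaged intervals of Cs, Idh3a, Idh3g and Idh2 lie below 0 before any adjustment, and those of the other 5 genes include 0.

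Whether TAC had unlike effects in females and males was tested by an interaction term. No tested probe set passed in limma (0% called), and of 191 probe sets at an unadjusted p under 0.05 none belonged to these genes. The differences (female minus male) ran from -0.21 ± 0.23 (SE) for Fh1, with a 95% interval of -0.69 to 0.27, to 0.23 ± 0.25 (SE) for Mdh1, with a 95% interval of -0.30 to 0.76. Without female sham 2 these differences were -0.08 for Fh1 and 0.40 for Mdh1, and the Mdh1 difference was 0.14 without female sham 3. Intervals of this width leave room for differences between the sexes as large as the averaged changes themselves. Between female and male sham hearts no probe set passed either (0% called), and of the 351 at an unadjusted p under 0.05 none belonged to these genes. The sex differences in sham hearts (female minus male) lay between -0.04 ± 0.13 (SE) for Idh2 and 0.22 ± 0.15 (SE) for Fh1, with an adjusted p of 0.974 for Fh1 in limma. That of Fh1 was 0.09 without female sham 2.

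Many of the genes varied together from array to array within the groups. Over the deviations of the 15 arrays from their group means, 34 of the 36 pairs of genes had a Pearson r above 0, with a median of 0.38. The mean r was 0.41 over these pairs and 0.06 over all pairs of tested probe sets. Cs and Idh3g were the closest pair (r = 0.89), followed by Cs and Suclg1 (0.86) and by Idh3g and Mdh2 (0.85). Idh3a and Mdh1 (-0.13) and Idh2 and Idh3a (-0.04) were the pairs below 0. With the other genes, Idh2 had r from -0.04 to 0.37 and Mdh1 from -0.13 to 0.44. These values describe 15 arrays on which all genes share the RNA and the hybridisation.

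Single arrays stood apart for most of these genes. Male sham 7 held the lowest value of its group for 7 of the 9 genes, with a mean deviation of -0.30 on the log2 scale, and male sham 8 the highest for 6, with 0.23. Male TAC 6 held the highest value of its group for 7 of the 9, with a mean deviation of 0.23. The median deviation over all tested probe sets was -0.06 on male sham 7 and 0.04 on both male sham 8 and male TAC 6. It was lowest on female TAC 1, with -0.12, where 48.4% of probe sets were below the floor, the highest share of any array. Male sham 7 was also the male array least correlated with the rest, and without it the male log2 changes of Cs and Idh3g were -0.45 and -0.56. Without male sham 7 and female TAC 1 together, a choice made after seeing the data, all 9 genes were below 0 in the averaged comparison, the median was -0.20 and none was called.

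**Figure D4:**
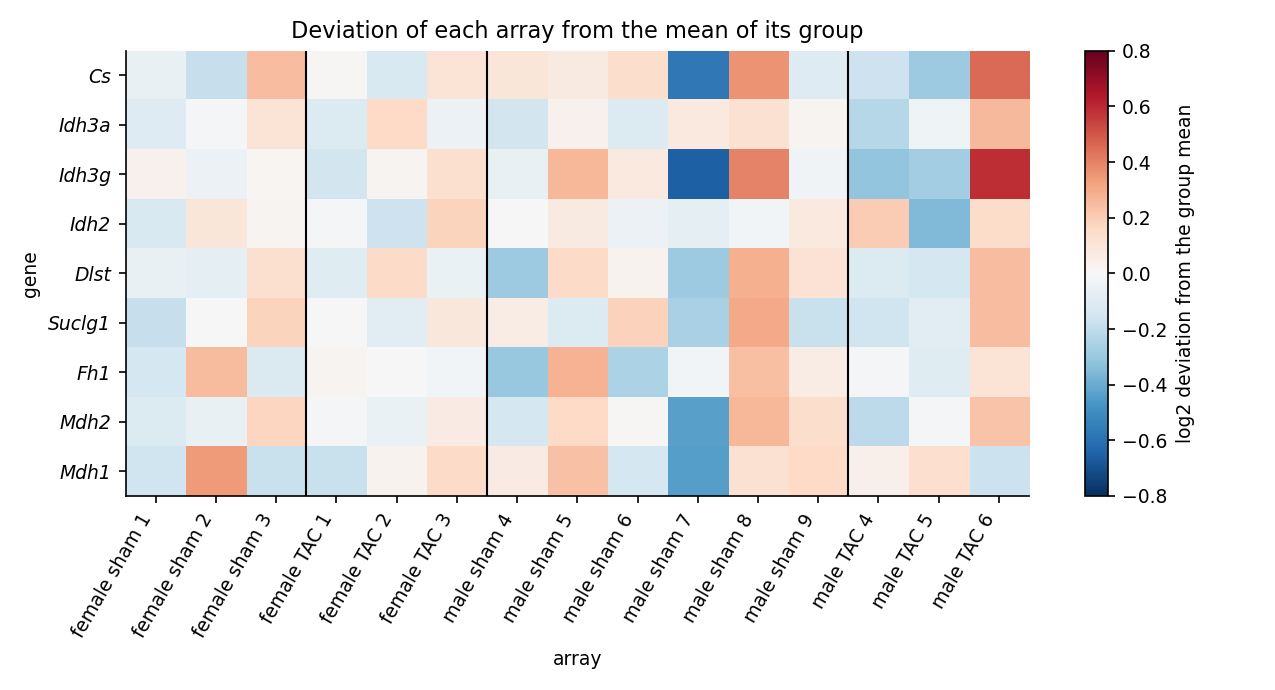
Colour shows the log2 deviation of each of the 9 genes (rows) from the mean of its group on each of the 15 arrays (columns), with black lines between the groups. Male sham 7 is blue for most genes and male sham 8 and male TAC 6 are red for most.

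The probe sets whose deviations were most like those of the 9 genes were sought among 6611 others with a single symbol, by the mean Pearson r to the 9 over the 15 arrays. They were Ckmt2 (mean r 0.66), the mitochondrial creatine kinase of striated muscle, Fxr1 (0.66), an RNA-binding protein, Ndufb8 (0.65), a subunit of respiratory complex I, and the ATP synthase subunits Atp5c1 (0.64) and Atp5o (0.64). Their own averaged log2 changes with TAC were -0.29 ± 0.18, 0.20 ± 0.20, -0.09 ± 0.11, -0.18 ± 0.17 and -0.29 ± 0.11 (SE), and none passed in limma (adjusted p from 0.480 to 0.904). The probe set of Ckmt2 is of a design that can bind related transcripts.

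Of 10 further enzymes of the cycle, 8 were tested, with a median averaged log2 change of -0.24 and none called. All 8 were below 0, where 58.2% of all tested probe sets were. In females all 8 were below 0 (median -0.29), against 59.4% of all tested probe sets, and in males 7 were (median -0.22), against 52.7%. Sdhc, a membrane anchor of succinate dehydrogenase, had -0.25 ± 0.09 (SE), and Sdha, its flavoprotein, had -0.46 ± 0.16 (SE), with limma adjusted p of 0.417 and 0.447. The remaining 6 lay between Sucla2 with -0.34 ± 0.16 (SE) and Sdhb with -0.11 ± 0.11 (SE). The probe sets of Sucla2 and Sdhb are of designs that can bind related transcripts. The 17 cycle genes tested, the 8 further enzymes and the 9, were therefore all below 0 in the averaged comparison at the deposited scaling. Fh1 was 0.01 with each array centred on its median. The smallest adjusted p among the 17 was that of Idh2.

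**Figure D5:**
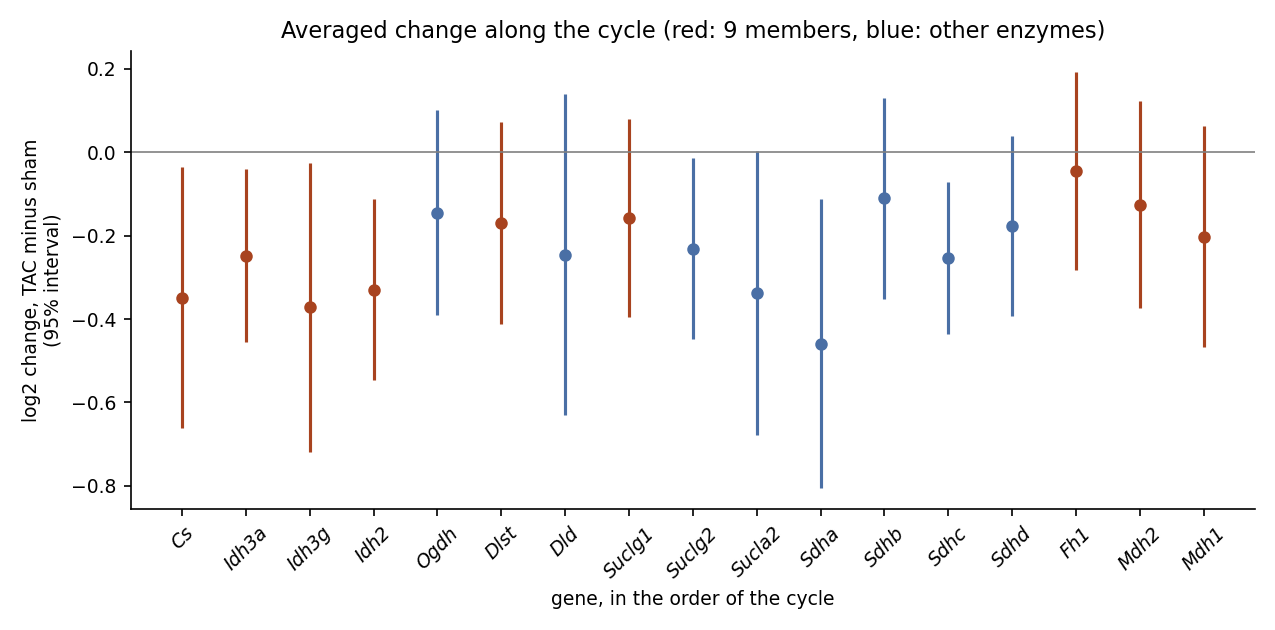
Averaged log2 change with TAC (TAC minus sham, 95% interval from limma) of 17 genes in the order of the cycle, with the 9 genes described here in red and 8 further enzymes in blue. All points lie below 0, the lowest at Sdha (-0.46) and the highest at Fh1 (-0.05, or 0.01 with each array centred on its median).

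Genes around the cycle were less uniform. Of 12 genes of pyruvate entry or its control, 5 were tested, with a median of 0.01 and none called. The 3 above 0 were Dlat (0.10 ± 0.15, SE) and the inhibitory kinases Pdk1 (0.01 ± 0.15, SE) and Pdk4. The dimmer probe set of Dlat differed in sign, with -0.11 ± 0.13 (SE). The 2 below 0 were the pyruvate dehydrogenase subunits Pdha1 (-0.05 ± 0.11, SE) and Pdhb. Pdhb, a subunit of pyruvate dehydrogenase, had -0.27 ± 0.18 (SE), and Pdk4, a kinase that inhibits that enzyme, had 0.60 ± 0.43 (SE), with limma adjusted p of 0.791 and 0.810. The Pdhb value was -0.45 without male TAC 6 and -0.12 without male TAC 4. In Pdk4 the female value was 0.10 ± 0.64 (SE) and the male value 1.1 ± 0.56 (SE). The averaged value of Pdk4 was 0.14 without male TAC 4 and 0.95 without male TAC 5. Of 14 genes of anaplerosis, shuttles and cytosolic counterparts, 10 were tested, with a median of -0.12 and none called. Of these, 8 were below 0, where 58.2% of all tested probe sets were. Pcx, pyruvate carboxylase, had -0.18 ± 0.10 (SE), and Slc25a11, the carrier that exchanges malate for alpha-ketoglutarate, had -0.19 ± 0.12 (SE), with limma adjusted p of 0.740 and 0.770. The dimmer probe set of Pcx had -0.41 ± 0.18 (SE, limma adjusted p = 0.611). Both Pcx probe sets are of designs that can bind related transcripts. The Slc25a11 value was -0.29 without male TAC 6 and -0.10 without male TAC 5. Of 8 regulators of mitochondrial genes, 5 had a probe set annotated to their symbol alone, and 2 of these were bright enough to be tested. They were Esrra (-0.07 ± 0.09, SE) and Ppara (-0.06 ± 0.09, SE), and neither passed (limma adjusted p = 0.911 and 0.923).

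In RNA of whole ventricle, fewer cells of a type and less RNA per cell cannot be told apart. Of the 6 fibroblast markers tested, 5 had an averaged log2 change above 0, as did 3119 of all 7453 tested probe sets. Col1a2 had -0.03 ± 0.08 (SE), and the list had a median of 0.41 and none called. The dimmer probe set of Col1a2 differed from it, with 0.63 ± 0.19 (SE). Summed over all 7 listed fibroblast markers, with Tcf21 untested, intensity ran from 1387 to 1453 in female and 1086 to 1506 in male sham hearts. It ran from 1438 to 2260 in female and 1621 to 1920 in male TAC hearts. All 7 markers (Col1a1, Col1a2, Col3a1, Dcn, Lum, Pdgfra and Tcf21) were above the floor on at least 1 array, and their part in the values of the cycle genes was not tested. The heart muscle markers had a median of -0.06, with 6 of 8 below 0 (58.2% of all tested probe sets were) and none called, but single markers moved more. Ryr2 had -0.52 ± 0.13 (SE) and Myh6 had -0.32 ± 0.13 (SE), with limma adjusted p of 0.166 and 0.559. The 2 above 0 included Mybpc3, with 0.20 ± 0.10 (SE, limma adjusted p = 0.686). The fall of Ryr2 was larger, and its adjusted p smaller, than that of any cycle gene tested. The part of heart muscle cells in the values of the cycle genes was not tested. Endothelial markers (median -0.01) and macrophage and leukocyte markers (median -0.04) had no called gene, and of these Kdr, Adgre1 and Ptprc were below the floor on all arrays. Smooth muscle (median -0.31, 2 tested), red blood cell (median -0.04, 2 tested), atrial (median -0.21, 2 tested) and fat cell markers (Adipoq, -0.26 ± 0.22, SE) had none called, and Myh11 and Fabp4 were below the floor on all arrays. The summed atrial markers (Myl4, Myl7 and Sln) ran from 92.2 to 540.0 among the male sham hearts alone, and their part was not tested.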

How the data were processed

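Left ventricular RNA was measured on 15 arrays. The authors deposited one linear intensity per probe set, in arbitrary units. Their software, background correction and scaling are not stated in the labels or files, and no further scaling was applied. The 66 control probe sets were left out, intensities below 20 were set to 20 (the pooled 30th percentile, 11.9, was lower) and converted to log2. Tests covered the 7453 probe sets that make up the brightest 60%. Gene names came from the platform annotation, updated through RefSeq (GRCm38.p6). The brightest tested probe set stands for its gene.

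A linear model with a mean for each group was fitted in limma 3.58.1 (R 4.3.3), with Benjamini-Hochberg adjustment across everything tested. Genes and lists were chosen with earlier results of these data known. Alternatives were other array scalings, floors, filters, variance models, array weights, a replicate block and leaving out each array. Named beside the 9 genes were the 2 genes of smallest p in each pathway list, any that passed, and the 5 probe sets most like the 9. Sucla2 and Sdhb were added after their values were seen as ends of a range. Suclg2, Dlat, Pdk1, Pdha1 and the single values of Ryr2, Myh6 and Mybpc3 were also added after their values were seen. The single values of Col1a2 and Adipoq, and those of the dimmer Dlat and Pcx probe sets, are likewise outside the rule for naming. Same-numbered sham and TAC arrays had correlated deviations in females (0.244, 0.270 and 0.117) but not in males (0.0641, -0.0828 and 0.0136), where the numbers come from the sample titles.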

Additional observations from a re-analysis of the deposited data

How the results depend on the processing

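None of the 9 genes was called under any of the 27 alternatives to each effect of TAC, or the 26 to each other comparison. Their smallest adjusted p from limma was 0.142 (Idh3a, array weights, averaged effect). In the averaged comparison 8 or 9 of the 9 genes stayed below 0, with medians between -0.24 and -0.14. In females 8 or 9 did and in males 7 to 9, and the male median, -0.31, was -0.32 to -0.13 when 1 array was left out, with -0.13 without male TAC 5. The female median, -0.21, was -0.13 with median centring. In females the median over all tested probe sets was 0.03 with median centring, against -0.04 at the deposited scaling. The median over all tested probe sets moved between -0.05 and 0.02 in the averaged comparison.

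Signs near 0 changed. The averaged change of Fh1 was 0.014 with median centring, 0.00136 with the replicate block, and -0.080 to 0.018 when 1 array was left out, and that of Ppara was 0.00057 with median centring. The female change of Mdh1 was 0.048 with array weights, 0.00414 without the 2 least correlated arrays (chosen after seeing the data) and -0.18 to 0.084 without 1 array. Without 1 array the male change of Fh1 was -0.00062 to 0.12, that of Mdh2 -0.17 to 0.049, and the sham sex difference of Idh2 -0.093 to 0.019. The causes were not tested.

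The number of probe sets called over the whole array depended on the setting. Against 24 for the averaged effect it was 45 with median centring and with quantile normalization, 12 with a floor at the pooled 10th percentile of values above 0, 13 without the filter, 68 with array weights, 8 with the replicate block and 12 to 29 without 1 array. For females it was 36 with array weights, 3 with the replicate block, 2 in the female arrays alone and 2 to 8 without 1 array, against 6. For males, against 10, it was 18 with median centring, 3 with that lower floor, 6 with 20 added in place of the floor, 4 without the filter, 3 with the replicate block, 6 without the 2 least correlated arrays and 3 to 12 without 1 array. The sham sex difference had 2 calls without the filter and 2 with array weights, and 0 otherwise. Pairing by number was not seen in males, where only male TAC 4 correlated best with the sham heart of its own number. With so few arrays, and labels that do not say what the numbers mark, pairing in males cannot be settled. The block changed no call of the 9 genes.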
